A study of Mus musculus with 21 samples.

Results

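The genes described here encode enzymes that write and erase methyl and acetyl groups on histones, together with their close relatives. They are every counted gene whose symbol starts with Kdm, Kmt, Setd, Hdac, Sirt, Kat, Prdm, Ezh, Ehmt or Suv39h followed by a digit. This rule on symbols took 77 of the 24456 genes in the count files. The symbols also take in lysine acetyltransferases, sirtuins that act in mitochondria and PRDM zinc finger proteins, some without a known histone substrate. They miss enzymes with other names, such as *Setdb1* and *Dot1l*, which are given separately as lists.

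The study sequenced total RNA from fractionated mouse testis cells with and without H2A.L.2, a histone H2A variant of late male germ cells, to ask what its loss does to RNA after meiosis. The 21 libraries fall into H2al2 WT, called wild type here, and H2al2 KO. Each genotype had 3 libraries of pachytene spermatocytes, 3 of round spermatids and 3 of condensing spermatids, and spermatozoa gave 2 wild-type libraries and 1 KO library. All were labelled as testis, and the labels used here give no strain, age or description of the KO allele, and do not say whether libraries came from separate animals. The study's paper calls its wild-type round spermatid samples independent biological replicates, and nothing used here says so of the other groups. The p-values below measure the spread between libraries, which may in part be technical.

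Counts on genes ran from 2772995 to 8201682 per library. The shallowest were the spermatozoa libraries, with 3450580 and 2772995 in wild type and 3297783 in KO. Levels are given as CPM, which is counts relative to the size of the library, after scaling over all 21 libraries with trimmed mean of M-values (TMM). The 77 genes together took 0.602% to 0.66% of the counts in wild-type pachytene spermatocytes, 0.36% to 0.387% in the round and 0.359% to 0.399% in the condensing spermatids, and 0.479% to 0.484% in spermatozoa. The KO libraries gave 0.64% to 0.662%, 0.356% to 0.396% and 0.353% to 0.394% in the same order of stages, with 0.575% in the single library of spermatozoa.

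Histone lysine methylation can accompany active or silent chromatin, depending on the residue: on H3K4 it marks promoters and enhancers, on H3K9 and H3K27 it marks silent chromatin, and on H3K36 it marks transcribed gene bodies. Acetylation loosens the hold of histones on DNA and is removed by zinc-dependent deacetylases and by NAD-dependent sirtuins. In male germ cells the X and Y chromosomes are silenced in pachytene spermatocytes, and later, as spermatids condense, hyperacetylated histones give way to transition proteins and protamines.

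The labels were checked with the targeted gene and with stage markers. *H2afb1*, the gene for H2A.L.2, read 201, 206 and 211 CPM in wild-type round spermatids and 25.3, 25.4 and 20.7 CPM in KO round spermatids. In condensing spermatids it read 190, 160 and 250 CPM in wild type and 26.5, 35.7 and 29.9 CPM in KO. In pachytene spermatocytes the wild-type values were 40.8, 36.7 and 14.5 CPM and the KO values 4.81, 4.92 and 3.16 CPM. At each of these stages every KO library lay below every wild-type library, and no KO library was at 0. Spermatozoa followed with 57.7 and 45.1 CPM in wild type and 14.6 CPM in the KO library. The log2 difference between KO and wild type was −3.10 ± 0.10 (SE) in round spermatids by edgeR's quasi-likelihood F test with Benjamini-Hochberg adjustment (adjusted p = 3.4e-08). It was −2.71 ± 0.17 in condensing spermatids (same test, adjusted p = 9.54e-07) and −2.76 ± 0.37 in pachytene spermatocytes (adjusted p = 0.484).

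The stage markers were summed per library. A list of 9 spermatocyte markers, led by *Piwil1*, summed to 1900–2590 CPM in wild-type pachytene spermatocytes, 409–523 in the round and 828–1020 in the condensing spermatids, and 201–224 in spermatozoa. The 7 round spermatid markers, led by *Tssk2*, summed to 424–692, 1890–2060, 1260–1400 and 477–543 CPM in the same order. The 8 elongating spermatid markers, led by *Prm2*, gave 2060–5130, 24800–27500 and 25000–37200 CPM. In spermatozoa they summed to 26200–29400 CPM, but there *Odf1* led with a mean of 15500 CPM, and against condensing spermatids 6 of the 8 were lower and 1 higher. The spermatocyte and round spermatid lists were highest in the stage of their name, whereas the elongating spermatid list was already high in round spermatids and did not part round from condensing spermatids. The spermatogonium list of 8 genes, led by *Kit*, summed to 41.3–56.4, 45.9–50 and 72.6–80.6 CPM in the first 3 stages of wild type, and 4 of 7 tested genes rose into condensing spermatids.

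Most of the genes were detected. In wild type, 69 of 77 had a mean of at least 1 CPM in pachytene spermatocytes, 68 in the round and 71 in the condensing spermatids, and 72 in spermatozoa. Means of at least 100 CPM were reached by 20, 11, 10 and 16 genes in that order. *Prdm13* had no count in any library. The filter on low counts kept 70 of the 77 for the stage comparisons; *Hdac8*, *Hdac10*, *Prdm1*, *Prdm6*, *Prdm12*, *Prdm13* and *Prdm14* fell under it. Bulk RNA cannot tell fewer cells of a type from less RNA per cell, so each stage difference below is one of the share of RNA in a fraction.

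Between genes, levels were compared as CPM per kb of exon. In wild-type pachytene spermatocytes the highest mean levels per length were those of the H3 acetyltransferase gene *Kat7* (171 CPM per kb), the class I deacetylase *Hdac1* (109), the H3K9 demethylase *Kdm3a* (98.1) and the H3K4 demethylase *Kdm5b* (92.2). In round spermatids *Hdac1* (100 CPM per kb) and *Ehmt2* (98.2), which encodes an H3K9 methyltransferase, led, followed by the H4K16 acetyltransferase gene *Kat8* (69.6). In condensing spermatids *Ehmt2* (90.1 CPM per kb), *Kat7* (60.4) and *Hdac1* (59.7) led. *Setd3*, which encodes the actin histidine methyltransferase, was highest per length in spermatozoa, at 100 CPM per kb, followed by *Ehmt2* at 78.4.

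From pachytene spermatocytes to round spermatids in wild type, 17 of the 70 tested genes rose (24.3%) and 29 fell (41.4%) at an adjusted p under 0.05. Of the 14011 genes tested in total, 34.4% rose and 35.9% fell. The median log2 fold change was −0.26 for the enzymes and −0.02 for all genes, and the enzymes ranged from −3.14 for *Kmt2d* to 2.37 for *Kat2b*. With scaling by library size only, the median of all genes shifted by −0.19, and 14 enzymes rose and 37 fell. From round to condensing spermatids, 21 of 70 rose (30%) and 15 fell (21.4%), beside 28.3% and 21.8% of all genes. The median was 0.11 for the enzymes and 0.04 for all genes, and the range was narrower, from −1.03 for *Sirt4* to 2.16 for *Hdac6*. In this later step, 13 enzymes rose and 12 fell without R_WT replicate 2, beside 3346 and 2437 of 14294 genes. Both steps use the same round spermatid libraries, so they are not independent, and their values stand side by side below only as a description. Counts by role below are to be read beside the shares over all genes, and no role was tested against them.

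**Figure D1:**
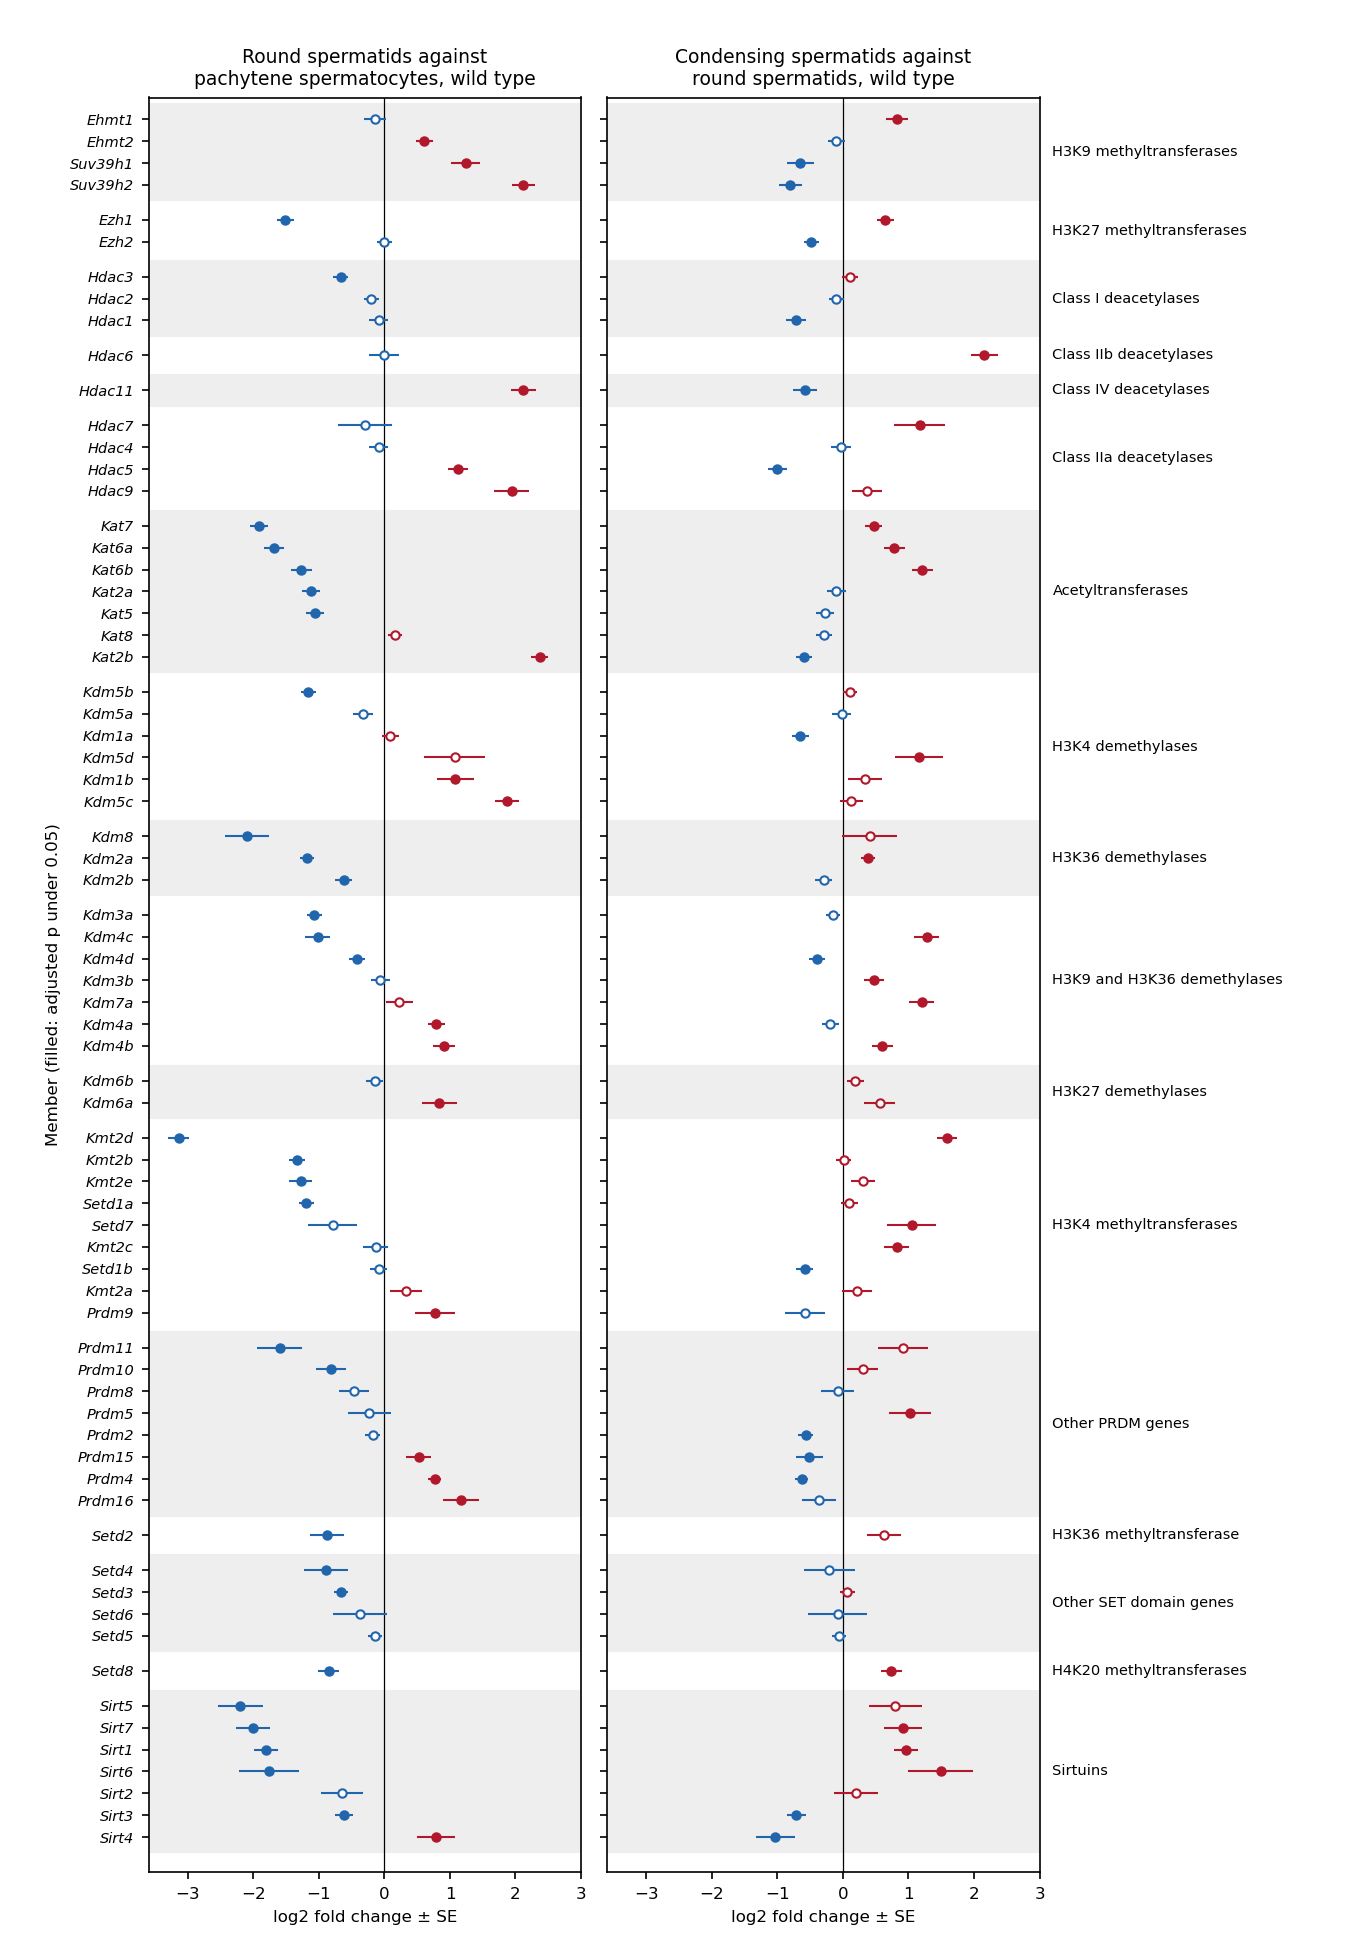
Log2 fold change with its SE for the 70 tested enzymes, grouped by role, in wild-type round spermatids against pachytene spermatocytes (left) and condensing against round spermatids (right); filled points have an adjusted p under 0.05, red is higher and blue is lower. Acetyltransferases, H3K4 methyltransferases and sirtuins lie mostly on the lower side in the left panel. The 4 H3K9 methyltransferases of the Suv39h and Ehmt families lie mostly on the higher side.

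Of the 7 acetyltransferase genes, 5 fell and 1 rose from pachytene spermatocytes to round spermatids, and their summed mean level went from 1020 to 454 CPM, then 492 CPM in condensing spermatids. *Kat2b* encodes PCAF, a GCN5-related enzyme that acetylates H3. It read 12.6, 13.7 and 11.9 CPM in wild-type pachytene spermatocytes, 61.2, 67.9 and 64.4 CPM in round spermatids, and 39.8, 40.6 and 46.2 CPM in condensing spermatids. The 3 stages did not overlap, with round spermatids highest. The rise was 2.37 ± 0.13 on the log2 scale by edgeR's quasi-likelihood F test with Benjamini-Hochberg adjustment (adjusted p = 1.26e-08). Its paralog *Kat2a*, which encodes GCN5, read 43.1, 45.9 and 51 CPM and then 18.1, 23.5 and 21.5 CPM in round spermatids. The pair therefore changed order: per length, the ratio of *Kat2b* to *Kat2a* was 0.152 to 0.196 in the wild-type pachytene libraries and 1.89 to 2.21 in the round spermatid libraries. *Kat7*, which encodes HBO1, an acetyltransferase tied to DNA replication and H3K14, read 633, 641 and 585 CPM in pachytene spermatocytes, 183, 156 and 145 CPM in round spermatids and 220, 249 and 188 CPM in condensing spermatids. All pachytene libraries lay far above all later ones, a log2 fold change of −1.91 ± 0.14 (edgeR quasi-likelihood test with Benjamini-Hochberg adjustment, adjusted p = 1.14e-07).

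The MYST acetyltransferase gene *Kat6b* rose into condensing spermatids, with a log2 fold change of 1.21. It read 36.3, 30.6 and 42.4 CPM in pachytene spermatocytes, 14, 15 and 15.2 CPM in round spermatids and 34.3, 28.2 and 38.5 CPM in condensing spermatids, so the outer stages overlapped and round spermatids lay below both. *Kat5*, which encodes TIP60, fell by 1.06 on the log2 scale into round spermatids. *Kat8*, which encodes MOF, did not pass the test in either step, with log2 differences of 0.16 and −0.29, but the later one passed in 6 other settings, DESeq2 among them.

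The genes grouped as H3K4 methyltransferases were *Kmt2a* to *Kmt2e*, *Setd1a*, *Setd1b*, *Setd7* and *Prdm9*. Among these 9, 4 fell and 1 rose from pachytene spermatocytes to round spermatids. From round to condensing spermatids, 3 rose and 1 fell. *Kmt2e* is in this group by its symbol, and activity of its product on H3K4 is not claimed. Its mean went from 124 to 50.3 CPM into round spermatids. Of these 9, *Setd1a* shares 53.3% of its exon length on the same strand with *Gm49388*, and the effect on its counts was not tested. *Kmt2d* encodes MLL4, a large enzyme of enhancer H3K4 monomethylation. It read 258, 337 and 358 CPM in pachytene spermatocytes, 33, 31.8 and 41.2 CPM in round spermatids, and 106, 102 and 107 CPM in condensing spermatids. Every round spermatid library lay below every condensing one, and these below every pachytene one. The fall was the largest among the 70 genes in this comparison, with a log2 fold change of −3.14 ± 0.16, or 8.8-fold lower (edgeR quasi-likelihood test with Benjamini-Hochberg adjustment, adjusted p = 9.36e-09). The later rise was 1.59 ± 0.15 (same test, adjusted p = 6e-06). The ratio of *Kmt2d* to *Kmt2c* per length was 4.52 to 7.93 in the wild-type pachytene libraries, 0.64 to 0.717 in round spermatids and 1.02 to 1.25 in condensing spermatids. *Prdm9*, the H3K4 and H3K36 methyltransferase that places meiotic recombination hotspots, read 2.77, 2.51 and 3.52 CPM in pachytene spermatocytes and 4.03, 4.87 and 5.65 CPM in round spermatids, a log2 fold change of 0.77 ± 0.30 (edgeR quasi-likelihood test with Benjamini-Hochberg adjustment, adjusted p = 0.0383). DESeq2 gave 0.78 with an adjusted p of 0.0741 for the same comparison, past no threshold. *Setd2*, which encodes the main H3K36 trimethylating enzyme of gene bodies, read 171, 99 and 254 CPM in pachytene spermatocytes and 83.4, 101 and 96.8 CPM in round spermatids. These groups overlapped, although the test was passed (log2 fold change −0.87, edgeR quasi-likelihood test with Benjamini-Hochberg adjustment, adjusted p = 0.008).

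Of the 4 H3K9 methyltransferase genes of the Suv39h and Ehmt families, 3 rose and none fell from pachytene spermatocytes to round spermatids. Their summed level went from 298 to 490 CPM. PRDM genes other than *Prdm9* were counted as a separate group, whatever residue they act on. Among them *Prdm2* had means of 317 and 273 CPM in these stages. *Setdb1*, an H3K9 methyltransferase gene outside the symbols, fell, from a mean of 153 to 58.5 CPM. *Suv39h2*, the testis-enriched paralog of the heterochromatin enzyme *Suv39h1*, read 16.6, 17.6 and 13.8 CPM in pachytene spermatocytes, 54.5, 74.7 and 75.4 CPM in round spermatids, and 34.8, 33.9 and 47.4 CPM in condensing spermatids. The 3 stages were fully apart, with round spermatids highest. Its log2 fold change was 2.12 ± 0.18 into round spermatids by edgeR's quasi-likelihood F test with Benjamini-Hochberg adjustment (adjusted p = 3.43e-07), and −0.80 ± 0.17 into condensing spermatids (adjusted p = 0.00194). *Suv39h1* followed at a lower level, at 3.25, 5.62 and 5.43 CPM, then 12.1, 11.7 and 9.13 CPM, then 6.92, 6.69 and 7.03 CPM. These groups did not overlap either, and the log2 fold changes were 1.24 and −0.65, the latter with its call lost in 4 of the other settings. *Ehmt2*, which encodes G9a, rose by 0.61 into round spermatids, while its partner *Ehmt1*, which encodes GLP, had −0.14 there and rose by 0.83 into condensing spermatids. The ratio of *Ehmt2* to *Ehmt1* per length was 43.9 to 61.1 in wild-type pachytene spermatocytes, 80.7 to 95.2 in round and 42.9 to 50 in condensing spermatids, and 8.8 and 7.8 in spermatozoa.

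The catalytic subunits of Polycomb repressive complex 2, which methylates H3K27, parted as well. *Ezh1* read 35.7, 39.7 and 40.5 CPM in pachytene spermatocytes, 12.6, 13.4 and 13.8 CPM in round spermatids and 18.9, 23 and 19.5 CPM in condensing spermatids. It fell and then rose, with log2 fold changes of −1.51 and 0.65 and no overlap between stages. *Ezh2* read 108, 93.6 and 110 CPM, then 94, 111 and 99.3 CPM, then 70.3, 74 and 69.8 CPM. The pachytene and round spermatid values overlapped (log2 difference 0.00), and the condensing ones lay below both, a fall by 0.48 on the log2 scale from round spermatids.

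Of the 6 demethylase genes for H3K4, 2 rose and 1 fell into round spermatids. *Kdm5b* read 866, 813 and 865 CPM in pachytene spermatocytes and 386, 374 and 350 CPM in round spermatids, without overlap. Its X-linked paralog *Kdm5c* read 6.38, 7.89 and 5.57 CPM in pachytene spermatocytes, 27.7, 25.4 and 18.1 CPM in round spermatids, and 25.7, 23 and 28.5 CPM in condensing spermatids. The pachytene libraries lay below all later ones, while the later stages overlapped. The rise into round spermatids was 1.87 ± 0.19 (edgeR quasi-likelihood test with Benjamini-Hochberg adjustment, adjusted p = 1.72e-06). Per length, *Kdm5b* exceeded *Kdm5c* by a ratio of 74.8 to 113 in the wild-type pachytene libraries and 10.1 to 14 in the round spermatid libraries. The Y-linked *Kdm5d* was scarce, at 0.842, 0.478 and 1.32 CPM, then 1.34, 2.23 and 1.74 CPM, then 3.08, 3.05 and 5.62 CPM. Its difference between the earlier stages was 1.07 ± 0.46 (edgeR quasi-likelihood test with Benjamini-Hochberg adjustment, adjusted p = 0.051), and 1.16 ± 0.37 into condensing spermatids (adjusted p = 0.0206). Both values lie near the threshold: by DESeq2 the later adjusted p was 0.0534, and with DESeq2 size factors in edgeR the earlier was 0.0461. *Kdm1a*, which encodes LSD1, fell by 0.65 on the log2 scale into condensing spermatids.

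Of the 7 demethylase genes of the Kdm3, Kdm4 and Kdm7 families, which act mainly on H3K9 and H3K36, 3 fell and 2 rose into round spermatids, and 4 rose and 1 fell into condensing spermatids. *Kdm3a*, an H3K9 demethylase needed for protamine and transition protein expression, read 504, 456 and 513 CPM in pachytene spermatocytes, 243, 223 and 222 CPM in round spermatids and 196, 214 and 198 CPM in condensing spermatids. It fell by 1.07 on the log2 scale in the earlier step and did not pass the test in the later one (−0.15). *Kdm4d*, a testis-enriched H3K9 demethylase, read 190, 176 and 172 CPM, then 141, 123 and 128 CPM, then 96.6, 109 and 86.1 CPM, lower at each stage without overlap (log2 fold changes −0.42 and −0.40). Both *Kdm4d* calls were lost in the test against a fold change of 1.2, and the later one also without R_WT replicate 1. *Kdm7a*, which demethylates H3K9 and H3K27, read 39.3, 23.3 and 45.5 CPM, then 43.5, 41.3 and 38.7 CPM, then 96.2, 87.9 and 95.6 CPM. Only the condensing spermatids stood apart for this gene, a 2.3-fold rise (edgeR quasi-likelihood test with Benjamini-Hochberg adjustment, adjusted p = 0.000283). *Kdm4c* rose by 1.28 into condensing spermatids. All 3 genes grouped as H3K36 demethylases, *Kdm2a*, *Kdm2b* and *Kdm8*, fell into round spermatids. *Kdm8*, for which activity on H3K36 is not claimed here, went from 5.05, 6.69 and 7.18 CPM to 1.61, 1.39 and 1.3 CPM. Of the H3K27 demethylases, the X-linked *Kdm6a* rose by 0.84 into round spermatids, with the call lost without P_WT replicate 1 (0.68).

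The zinc-dependent deacetylases followed their classes only in part. Class I *Hdac1*, *Hdac2* and *Hdac3*, catalytic subunits of nuclear corepressor complexes, had log2 differences of −0.09, −0.20 and −0.67 into round spermatids, and only *Hdac3* passed the test, as a fall. *Hdac1* read 231, 247 and 188 CPM, then 215, 202 and 195 CPM, then 135, 133 and 97 CPM, so that it was lower only in condensing spermatids (log2 fold change −0.72). Class IV *Hdac11*, a fatty-acid deacylase, read 18.9, 20.4 and 13.8 CPM in pachytene spermatocytes, 60.4, 81.4 and 84.8 CPM in round spermatids, and 45.8, 41.7 and 61.5 CPM in condensing spermatids. Every round spermatid library lay above every pachytene one, and round and condensing values overlapped. The rise was 2.12 ± 0.19 on the log2 scale (edgeR quasi-likelihood test with Benjamini-Hochberg adjustment, adjusted p = 7.03e-07).

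Class IIa deacetylases shuttle between nucleus and cytoplasm and bind MEF2 factors. *Hdac9* rose from 1.2, 2.15 and 1.76 CPM to 6.31, 7.37 and 5.51 CPM in round spermatids (log2 fold change 1.94). *Hdac5* read 21.4, 24.4 and 19.6 CPM, then 44.2, 44.9 and 50.2 CPM, then 25.2, 26 and 17.2 CPM, with round spermatids above both other stages. Class IIb *Hdac6*, the X-linked tubulin deacetylase, read 9.99, 10.3 and 7.33 CPM in pachytene spermatocytes, 11.8, 8.48 and 6.67 CPM in round spermatids, and 46.3, 32.7 and 40.1 CPM in condensing spermatids. The earlier stages overlapped (log2 difference 0.00) and the condensing libraries lay above them all. Its rise into condensing spermatids, 2.16 ± 0.21, was the largest of the 70 genes in that step (edgeR quasi-likelihood test with Benjamini-Hochberg adjustment, adjusted p = 6e-06).

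Of the 7 sirtuin genes, 5 fell and 1 rose into round spermatids, beside 35.9% and 34.4% of all genes. *Sirt1*, a nuclear deacetylase of histones and transcription factors, read 64.3, 41.8 and 65.1 CPM in pachytene spermatocytes, 14.8, 17.5 and 15.4 CPM in round spermatids, and 32.8, 31.3 and 26.9 CPM in condensing spermatids. Its stages were fully apart, with log2 fold changes of −1.81 ± 0.18 (edgeR quasi-likelihood test with Benjamini-Hochberg adjustment, adjusted p = 1.22e-06) and 0.96. The nuclear *Sirt6*, which had at most 4 counts in each round spermatid library, is given no fold change. The mitochondrial *Sirt5* fell, with a log2 fold change of −2.20, and did not read above 10 CPM. The nucleolar *Sirt7* fell too and read 8.3, 7.65 and 5.57 CPM and then 2.15, 1.81 and 1.3 CPM. The mitochondrial *Sirt4* was the exception, at 18.7, 24.5 and 9.68 CPM in pachytene spermatocytes, 34.8, 27.8 and 27 CPM in round spermatids and 16.5, 18.2 and 8.08 CPM in condensing spermatids. Round spermatids lay above both other stages, and the log2 fold change into condensing spermatids was −1.03. The earlier rise lost its call in 4 other settings, by library size only and without P_WT replicate 1, P_WT replicate 3 or R_WT replicate 1. *Sirt2*, a cytoplasmic deacetylase, was uneven within groups, at 194, 186 and 110 CPM in pachytene spermatocytes and 172, 70.4 and 63.8 CPM in round spermatids.

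The remaining genes encode other PRDM and SET domain proteins. Of the 8 tested PRDM genes besides *Prdm9*, 3 rose and 2 fell into round spermatids, and 1 rose and 3 fell into condensing spermatids. Of the 4 other SET domain genes, 2 fell into round spermatids and none rose. The H4K20 methyltransferase gene *Setd8* fell into round and rose into condensing spermatids, with means of 22.5, 12.2 and 20.1 CPM from pachytene spermatocytes on.

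From round to condensing spermatids, the log2 differences of enzymes given above for the earlier step only were 0.63 for *Setd2*, 0.56 for *Kdm6a*, 0.13 for *Kdm5c*, 0.11 for *Hdac3*, −0.10 for *Ehmt2*, −0.10 for *Hdac2*, −0.27 for *Kat5* and −0.58 for *Prdm9*, none past the test. *Hdac11* had −0.58, past it, with the call lost in 6 of the other settings. Calls were gained by *Setd2* (0.62) and *Kdm6a* (0.57) with the replicate number as a block, and by both in further settings. *Prdm9* gained a call without C_WT replicate 3 (−1.01).

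**Figure D2:**
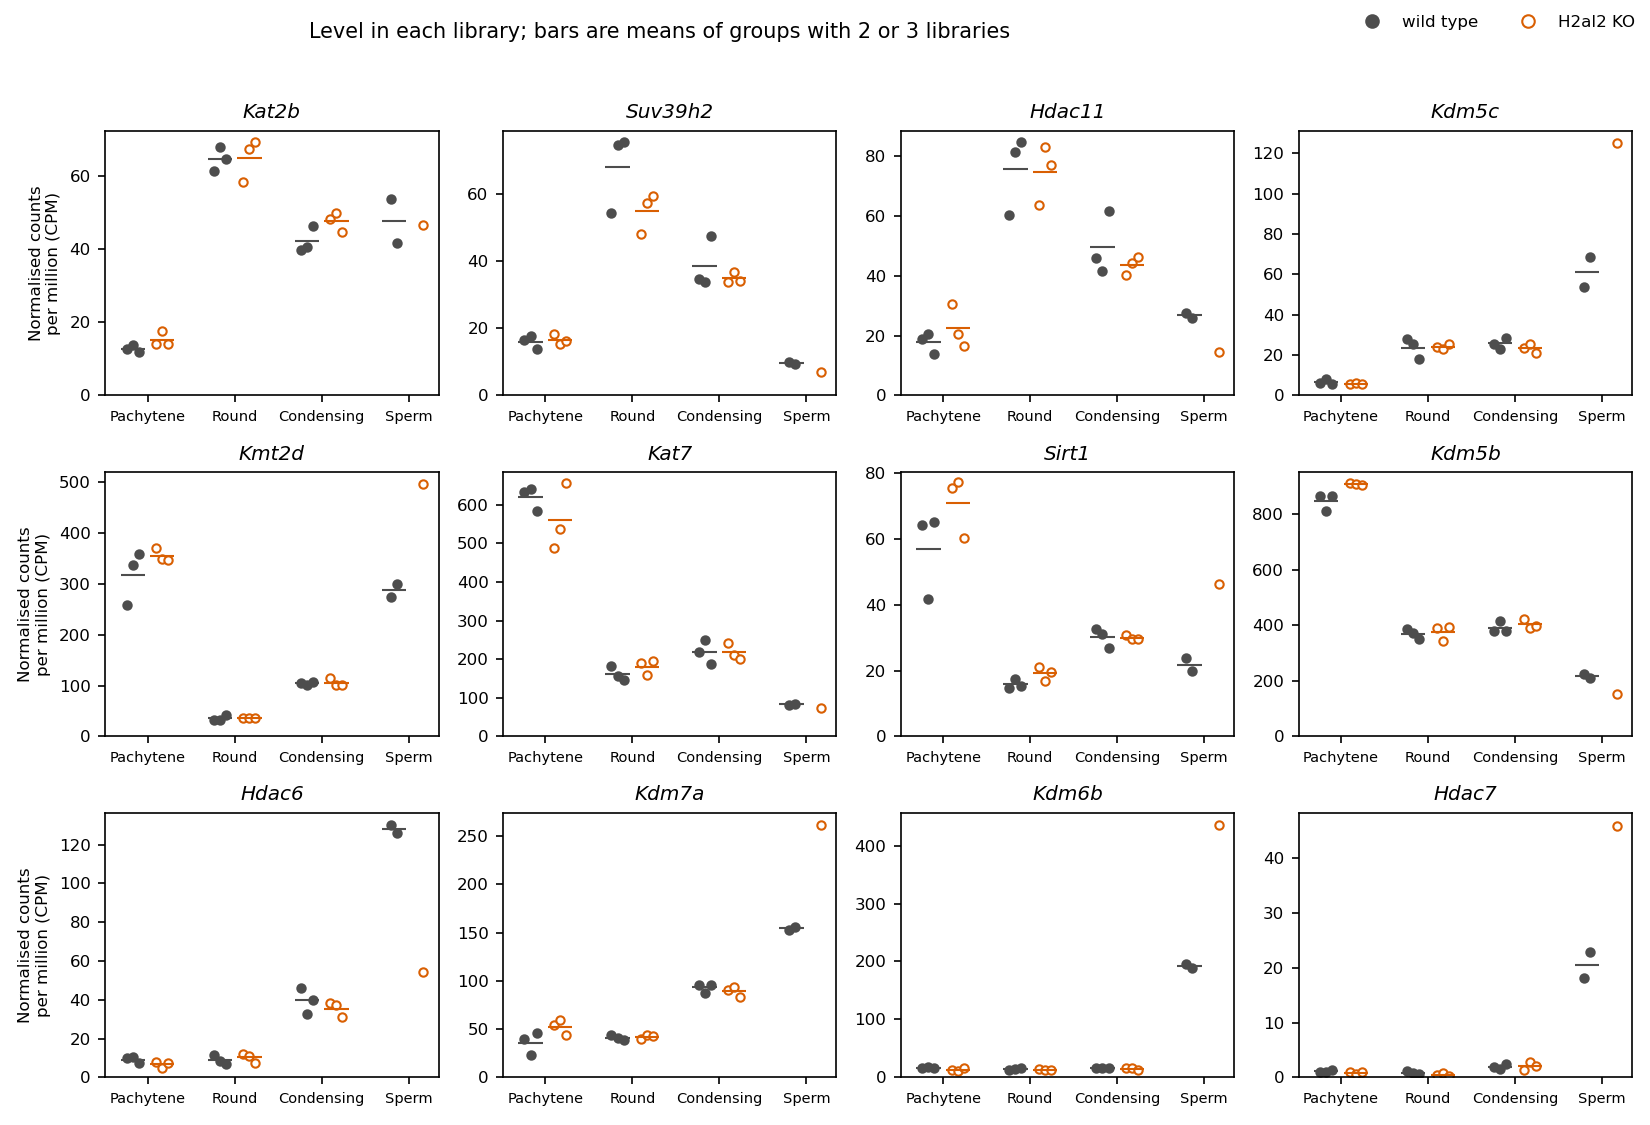
TMM-scaled CPM of 12 enzymes in each of the 21 libraries, by stage and genotype; points are libraries and bars are the means of groups with more than 1 library. *Kat2b*, *Suv39h2* and *Hdac11* are highest in round spermatids, *Kmt2d*, *Kat7*, *Sirt1* and *Kdm5b* are lower there than in pachytene spermatocytes, and *Hdac6* and *Kdm7a* are higher in condensing than in round spermatids.

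Sex chromosome position was not used by the rule. Of the 5 X-linked genes, *Suv39h1*, *Kdm5c*, *Kdm6a*, *Hdac6* and *Hdac8*, 4 were tested in the wild-type stages. Into round spermatids 3 of the 4 rose and none fell, with a median log2 fold change of 1.04. Over all 477 tested X-linked genes, 334 rose (70%) and 1 fell with a median of 1.57. Among the 65 tested autosomal enzymes 14 rose (21.5%) and 29 fell (44.6%), with a median of −0.37, beside 32.9% and 37.2% of 12790 autosomal genes, with a median of −0.07.

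Markers of other testis cells moved between the same fractions. The 9 Sertoli cell markers, led by *Clu*, summed to 32.5–36.5 CPM in wild-type pachytene spermatocytes, 37.8–52 in the round and 435–560 in the condensing spermatids. The 7 Leydig cell markers, led by *Cyp17a1*, summed to 79.7–164, 11.3–15.1 and 147–232 CPM. All 7 tested Sertoli markers rose into condensing spermatids, and all 7 Leydig markers fell into round spermatids and rose again. The spermatocyte markers took a like course, with 7 of 9 lower in round spermatids and 5 of 9 higher again in condensing spermatids. The 5 peritubular myoid markers summed to 52.8–93.3, 326–333 and 303–408 CPM, and *Actg2* made most of each sum. Its mean went from 63.9 to 319 CPM into round spermatids, whereas *Acta2* and *Myh11* went from 4.4 to 3.66 and from 7.25 to 6.6 CPM, and 1 of 4 tested genes rose and 1 fell. Into condensing spermatids 3 of the 4 rose, with *Acta2* at 20 and *Myh11* at 22.7 CPM. The 6 macrophage markers summed to 2.2–4.42, 20–24.2 and 25.1–32 CPM. The 5 red blood cell markers, led by *Alas2*, reached 18.5–24.9 CPM in condensing spermatids with *Hba-a1* and *Hbb-bt* at 0. The part of these cells in the differences between fractions was not tested.

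The stage differences were measured again in the KO libraries, which share no library with wild type. From pachytene spermatocytes to round spermatids, 20 of 70 rose (28.6%) and 37 fell (52.9%), beside 36.5% and 38.4% of 13877 genes. From round to condensing spermatids, 20 rose (28.6%) and 19 fell (27.1%), beside 29.7% and 24.5% of all genes. With scaling by library size only, the median of all genes in the earlier step shifted by −0.15. Of the 46 enzymes called in the earlier step in wild type and the 57 called in KO, 46 were called in both with the same direction, which is 100% of the wild-type list and 80.7% of the KO list. Over all genes these shares were 92.3% and 87%. In the later step 31 were shared, 86.1% of the 36 in wild type and 79.5% of the 39 in KO, beside 85.9% and 79.2% over all genes. Correlations used edgeR's log2 fold changes with a small count added, not the ones printed here. Across the 70 enzymes, those of the genotypes gave Pearson's r of 0.94 in the earlier and 0.92 in the later step. Across all 13676 genes tested in both, r was 0.95 and 0.94. These correlations are across genes, and genes are not independent replicates.

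The enzymes with the largest changes in KO were largely those named above. *Kmt2d* read 370, 350 and 347 CPM in KO pachytene spermatocytes, 36.6, 37.2 and 37 CPM in KO round spermatids and 115, 102 and 101 CPM in KO condensing spermatids. *Kat2b* read 14.1, 17.6 and 13.9 CPM, then 58.2, 67.2 and 69.3 CPM, then 48.2, 49.8 and 44.7 CPM. *Suv39h2* read 18.2, 15.2 and 16.2 CPM, then 48, 57.5 and 59.3 CPM, then 33.7, 36.9 and 34.1 CPM. For these 3 genes the KO stages did not overlap either. The log2 fold changes into KO round spermatids were −3.28 for *Kmt2d*, 2.08 for *Kat2b*, 2.05 for *Kdm5c*, 1.83 for *Hdac9*, 1.72 for *Suv39h2* and 1.71 for *Hdac11*. *Prdm11*, a scarce gene at 3.42, 2.86 and 3.16 CPM in KO pachytene spermatocytes and 0.278, 0.441 and 0.432 CPM in KO round spermatids, had at most 3 counts in each of the latter and is given no fold change. In wild type it read 3.01, 3.11 and 2.49 CPM and then 1.21, 0.556 and 1.01 CPM.

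**Figure D3:**
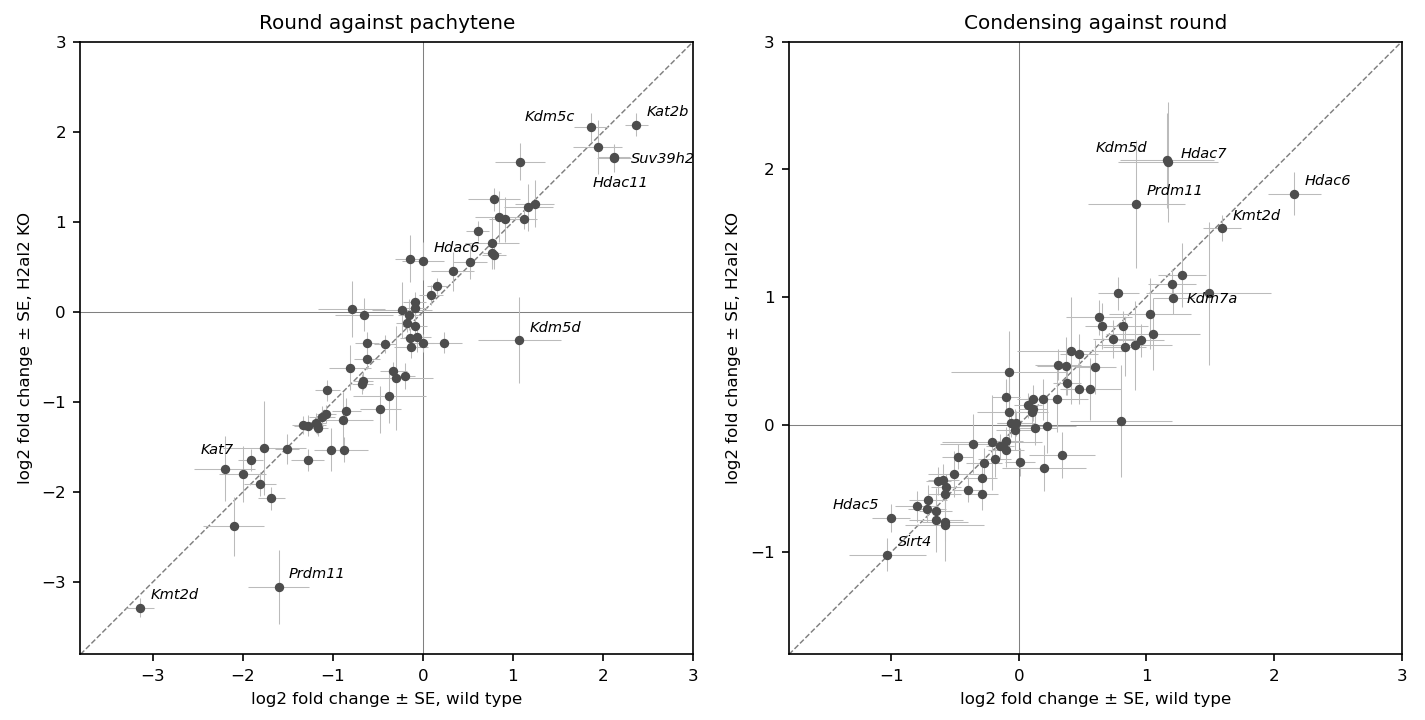
Log2 fold change with its SE of the 70 tested enzymes in wild type (horizontal) against H2al2 KO (vertical), for round against pachytene (left) and condensing against round (right); the dashed line marks equal change. Points lie along the line, and the scarce genes *Prdm11* and *Kdm5d* (left) and *Kdm5d* and *Hdac7* (right) lie farthest from it. Pearson's r of 0.94 (left) and 0.92 (right) is that of log2 fold changes with a small count added, not of the plotted values.

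Between genotypes within a stage, no enzyme passed the test in the analysis given. *Setd2* in pachytene spermatocytes passed only without P_WT replicate 3. *Sirt2* in round spermatids passed only without R_WT replicate 1 or with the replicate number as a block. In pachytene spermatocytes 0 of 68 tested enzymes were called by edgeR, beside 0% of 12236 genes, with 2 enzymes at an unadjusted p under 0.05 (6.66% of all genes) and 0 called by DESeq2. In round spermatids 0 of 64 were called, beside 0.0156% of 12804 genes, with 5 at an unadjusted p under 0.05 (5.88% of all genes) and 0 by DESeq2. In condensing spermatids 0 of 68 were called, beside 0.00728% of 13734 genes, with 1 at an unadjusted p under 0.05 (6.33% of all genes). DESeq2 called 0 of the 53 enzymes to which it gave an adjusted p there. The KO effect was also compared between stages. From pachytene spermatocytes to round spermatids its difference was called in 0 of 70 enzymes and 0% of 14479 genes by edgeR, with 6 enzymes at an unadjusted p under 0.05 (7.25% of all genes). From round to condensing spermatids it was called in 0 of 70 and 0% of genes, with 0 at an unadjusted p under 0.05 (2.81% of all genes), and DESeq2 called 0 enzymes in both.

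These counts over all genes moved when libraries were left out. Without P_WT replicate 3, which correlated least with its group among the libraries of these stages (Spearman 0.9831), 156 genes were higher and 87 lower of 12555 in KO pachytene spermatocytes. Without R_WT replicate 1, 131 were higher and 133 lower of 13045 in KO round spermatids. The difference of the KO effect from pachytene spermatocytes to round spermatids was called in 336 and 395 of 14612 genes when replicate 3 was left out of all 6 groups. Markers of other cells parted the genotypes at some stages. The Sertoli markers summed to 13.3–23 CPM in KO and 32.5–36.5 CPM in wild-type pachytene spermatocytes, to 26.5–33.4 and 37.8–52 CPM in round spermatids, and to 398–447 and 435–560 CPM in condensing spermatids, where they overlapped. The Leydig markers, in the same order of genotypes, gave 25.4–107 and 79.7–164 CPM in pachytene spermatocytes, with overlap, 6.48–10.4 and 11.3–15.1 CPM in round spermatids and 89–134 and 147–232 CPM in condensing spermatids. The macrophage markers gave 2.95–3.3 and 2.2–4.42, then 16.8–23.8 and 20–24.2, then 16.3–23.8 and 25.1–32 CPM, apart only in condensing spermatids. No gene of these lists passed the test, and their part in the comparisons was not tested.

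The 2 enzymes with the smallest unadjusted p in each stage are given here, and the shares above are what to read them against. *Setd8* read 25.6, 22.8 and 19.1 CPM in wild-type and 27.2, 25.9 and 27.5 CPM in KO pachytene spermatocytes. The groups did not overlap, and the log2 difference was 0.33 ± 0.13 (edgeR quasi-likelihood test with Benjamini-Hochberg adjustment, adjusted p = 0.656). In the same cells *Kdm7a* read 39.3, 23.3 and 45.5 CPM in wild type and 54.2, 59.2 and 44 CPM in KO, with overlap (log2 difference 0.60 ± 0.26, same test, adjusted p = 0.656). *Sirt2* read 172, 70.4 and 63.8 CPM in wild-type and 191, 116 and 215 CPM in KO round spermatids. Wild-type replicate 1 lay within the KO range, and the log2 difference was 0.78 ± 0.32 (edgeR quasi-likelihood test with Benjamini-Hochberg adjustment, adjusted p = 0.788). The *Sirt2* difference was 0.86 with the replicate number as a block (same test, adjusted p = 0.0451). Without R_WT replicate 1 it was 1.39 (same test, adjusted p = 0.00321). In the same cells *Sirt4* read 34.8, 27.8 and 27 CPM in wild type and 34.4, 36.4 and 37.6 CPM in KO, with overlap (log2 difference 0.28 ± 0.12, same test, adjusted p = 0.79). *Kdm4d* read 96.6, 109 and 86.1 CPM in wild-type and 83.2, 85.2 and 82.2 CPM in KO condensing spermatids, all KO values below all wild-type ones, with a log2 difference of −0.23 ± 0.11 (same test, adjusted p = 0.774). *Setd2* read 129, 139 and 160 CPM in wild-type and 166, 167 and 162 CPM in KO condensing spermatids, without overlap (log2 difference 0.20 ± 0.11, same test, adjusted p = 0.85). A p-value above the threshold does not show that the genotypes were equal. Over the tested enzymes the log2 differences ran from −0.80 to 0.64 in pachytene spermatocytes, from −0.40 to 0.78 in round spermatids and from −0.50 to 0.28 in condensing spermatids.

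Wild-type spermatozoa were compared with condensing spermatids over 2 and 3 libraries. Here 36 of 72 tested enzymes were higher (50%) and 15 lower (20.8%), beside 36.6% and 35.8% of 15116 genes. Among the 36 are *Hdac8*, *Hdac10* and *Prdm1*, which fell under the filter in all other comparisons. They passed it here only through spermatozoa, the group where they are high, so their place in this count follows from the filter. The median log2 difference was 0.48 for the enzymes and 0 for all genes. The genes grouped as H3K4 methyltransferases were higher in 6 of 9 cases with none lower. Their summed level was 993 CPM in spermatozoa against 404 CPM in condensing spermatids, of which *Kmt2e* made 180 and 61.4 CPM. *Kdm6b*, which encodes the H3K27 demethylase JMJD3, read 16.2, 15.7 and 16.9 CPM in condensing spermatids and 195 and 188 CPM in spermatozoa. Both spermatozoa libraries lay far above the others, a log2 fold change of 3.61 ± 0.15 (edgeR quasi-likelihood test with Benjamini-Hochberg adjustment, adjusted p = 1.5e-14). *Setd7*, which encodes an H3K4 monomethyltransferase, read 4.62, 2.91 and 5.62 CPM and then 52.5 and 46.5 CPM (log2 fold change 3.56). *Hdac7*, a class IIa deacetylase, read 1.85, 1.6 and 2.46 CPM and then 18.1 and 22.9 CPM (3.44). For each of these genes the groups were fully apart. *Prdm1*, which encodes the repressor BLIMP1, read 0.154, 0 and 0.703 CPM in condensing spermatids and 9.62 and 13.5 CPM in spermatozoa, and *Hdac10*, a polyamine deacetylase, 0.462, 0.727 and 0 CPM and then 7.58 and 9.37 CPM. Their condensing spermatid values rest on at most 5 counts per library, so no fold change is given.

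In the lower direction, *Kdm4d* read 25.1 and 19.1 CPM in spermatozoa, a log2 fold change of −2.08 ± 0.18 (edgeR quasi-likelihood test with Benjamini-Hochberg adjustment, adjusted p = 1.97e-09). *Suv39h2* read 9.91 and 9.37 CPM (−1.95), *Kat8* 25.7 and 22.9 CPM (−1.82) and *Kat7* 81.3 and 84.6 CPM (−1.35), in each case below all 3 condensing spermatid libraries. *Kmt2d* at 275 and 300 CPM and *Hdac6* at 130 and 126 CPM lay above all condensing spermatid libraries.

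Markers of other cells also parted spermatozoa from condensing spermatids. The 6 macrophage markers, led by *Lyz2*, summed to 743 and 692 CPM in the wild-type spermatozoa against 25.1–32 CPM in condensing spermatids, and 6 of 6 were higher by the test. The 8 epididymis epithelium markers, led by *Crisp1*, summed to 1800–1900 CPM against 0.308–3.51 CPM, with *Lcn5*, *Lcn8*, *Lcn9* and *Spint4* at 0 in all libraries. The Sertoli markers summed to 210–251 CPM in spermatozoa, of which *Clu* made a mean of 205 CPM, and all 7 tested genes of that list were lower than in condensing spermatids. The Leydig markers summed to 11.4–11.8 CPM, with 6 of 7 lower, and the red blood cell markers to 49.6–49.8 CPM. Spermatozoa were labelled as testis, and their part in these differences from other cells was not tested.

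Promoter sequence was read for 61 of the 77 genes as windows from 250 bases before to 50 bases after a RefSeq start on GRCm38.p6. The cyclic AMP response element TGACGTCA, which is its own reverse complement and so was searched on both strands, is bound by CREM, a regulator of genes in round spermatids. It was in the windows of 1 of 61 enzymes (1.64%) and of 549 of 27025 genes (2.03%), and in 588 of all 32851 windows (1.79%). That enzyme was *Suv39h2*, whose window is shown with those of *Kat2b* and *Hdac11*, because these are the autosomal enzymes with the largest rise into round spermatids. They lie at chr2:3474937-3475236 on the minus strand, chr17:53566721-53567020 on the plus strand and chr6:91156565-91156864 on the plus strand, and run 5′ to 3′ along the gene, with the element in capitals. *Kat2b* had 2 windows, of which only the first is shown. The other windows shown do not hold these letters, and a match only describes the sequence.
Suv39h2: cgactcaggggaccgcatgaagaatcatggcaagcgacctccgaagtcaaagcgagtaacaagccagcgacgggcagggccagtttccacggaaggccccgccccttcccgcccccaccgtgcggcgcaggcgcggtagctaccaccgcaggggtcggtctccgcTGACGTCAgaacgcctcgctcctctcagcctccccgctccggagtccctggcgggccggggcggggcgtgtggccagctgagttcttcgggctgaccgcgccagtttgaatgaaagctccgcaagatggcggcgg
Kat2b: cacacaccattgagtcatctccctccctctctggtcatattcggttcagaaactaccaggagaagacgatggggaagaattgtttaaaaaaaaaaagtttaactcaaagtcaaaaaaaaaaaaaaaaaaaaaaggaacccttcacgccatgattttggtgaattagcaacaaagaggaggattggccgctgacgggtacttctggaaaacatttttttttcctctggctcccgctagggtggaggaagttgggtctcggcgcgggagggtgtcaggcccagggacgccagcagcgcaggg
Hdac11: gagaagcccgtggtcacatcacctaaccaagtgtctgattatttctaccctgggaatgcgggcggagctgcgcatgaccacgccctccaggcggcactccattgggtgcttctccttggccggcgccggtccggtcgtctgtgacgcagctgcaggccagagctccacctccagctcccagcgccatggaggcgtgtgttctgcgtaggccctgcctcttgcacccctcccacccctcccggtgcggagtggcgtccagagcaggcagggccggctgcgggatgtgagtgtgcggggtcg

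Genes that work with these enzymes were counted as 7 lists, and the genes named with them were picked after the values were seen. Of all 14011 genes tested from wild-type pachytene spermatocytes to round spermatids, 34.4% rose and 35.9% fell. No list was tested against these shares. From wild-type pachytene spermatocytes to round spermatids, 5 of 6 subunit genes of COMPASS H3K4 methyltransferase complexes fell and 1 rose. *Men1* had −2.02, *Rbbp5* −1.55 and *Dpy30* 1.70, and not all 6 are subunits shared by every such complex. *Kansl1*, which was in that list but belongs to an acetyltransferase complex, fell too. Of 8 tested Polycomb repressive complex 2 genes, 6 fell, among them *Rbbp4* (−1.64), and 2 rose. Among 6 partners of H3K9 methylation, 4 fell, including the heterochromatin protein genes *Cbx1* (−2.28) and *Cbx5* (−1.81), and 1 rose. Deacetylase complex genes fell in 11 and rose in 4 of 20 cases, with the SIN3 subunit gene *Sap30* at −4.05. Acetyltransferases with other names and their complex subunits were mixed, with 9 higher and 10 lower of 24, from *Ing4* (−2.48) to *Msl3* (2.11). Other methyltransferases fell in 8 and rose in 2 of 14 cases, with *Setdb1* at −1.36 and *Dot1l* at 0.62. Of 6 other demethylases, 3 rose, among them the Y-linked *Uty* (2.34) and the X-linked *Phf8* (1.62), and 3 fell, with *Phf2* at −3.37. In the KO comparisons within a stage, edgeR called none of the genes of these 7 lists.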

How the data were processed

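The authors deposited per-gene read counts, one file per library, and these counts were the start of all analyses. By the submitters' notes, paired reads of a stranded total RNA kit were aligned to mm10 with STAR 2.7.11b and counted with HTSeq; their own DESeq2 was 1.22.2. Of all reads counted in a library, 34.6% to 57.7% were on lines naming no gene and were left out. R 4.3.3 with edgeR 4.0.16 was used: TMM scaling, the filterByExpr filter, the quasi-likelihood F test and Benjamini-Hochberg adjustment over all tested genes, called at an adjusted p under 0.05. The wild-type stages shared 1 fit, as did the KO stages; each KO comparison and the spermatozoa comparison had a fit of its own, and the change of the KO effect used 18 libraries. Each SE, in the text and the figures, was derived from the test as the absolute log2 fold change divided by the square root of its F statistic. The single KO spermatozoa library was not tested.

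Of the 77, fold changes and p-values are given only for enzymes among these: up to 6 per direction and stage comparison with the largest change among those called, with a mean of at least 1 CPM and no overlap between groups; the 2 with the smallest p in each KO comparison; and, in the wild-type stages, 22 enzymes written down for their known roles. After the values were seen, fold changes of enzymes with at most 5 counts in every library of a group were left out. Members, roles, markers and lists were chosen with earlier results of these data known. Exon lengths are from the GENCODE M21 basic annotation, as the union of exons, and promoter windows use RefSeq starts on GRCm38.p6. Alternatives were DESeq2 1.42.0, its size factors, library size only, no filter or at least 10 counts in every library, a test against a fold change of 1.2, the replicate number as a block, 1 fit on all 18 libraries, and each replicate left out in turn. Wild-type round spermatid replicates 2 and 3 were more alike than other replicates: the mean chi-square per gene between them was 1.06 at 100 to 1000 summed counts and 8.76 for the most counted genes, against 4.44 to 4.48 and 65.9 to 70.3 for the other pairs of that group. They were kept as separate samples, and their sum as 1 sample was an alternative. The scripts were checked on simulated data.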

Additional observations from a re-analysis of the deposited data

How the results depend on the processing

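Wild-type counts from pachytene to round spermatids were 17 higher (14 to 18 in other settings, 13 to 18 with a library left out) and 29 lower (23 to 37, 28 to 31). From round to condensing they were 21 (16 to 24, 13 to 23, with 13 without R_WT replicate 2) and 15 (11 to 17, 12 to 16). In KO they were 20 (15 to 21, 17 to 21) and 37 (27 to 39, 34 to 37), then 20 (17 to 22, 17 to 21) and 19 (14 to 19, 15 to 19). Spermatozoa gave 36 (31 to 36, 31 to 36) and 15 (13 to 18, 11 to 18), where leaving out 1 of 2 assumes the lone sample varies like the others. KO calls were 0 except *Setd2* in pachytene without P_WT replicate 3 (0 to 1), *Sirt2* in round spermatids without R_WT replicate 1 (0 to 1; log2 difference 1.39, edgeR quasi-likelihood test, Benjamini-Hochberg adjusted p = 0.00321), which leaves the near-identical replicates 2 and 3, and with the replicate block (1 call, 0.86, adjusted p = 0.0451, where the replicate block called 18 higher and 43 lower of all 12804 genes, and 9 and 17 of 13734 in condensing spermatids), and 4 changes of the KO effect into round spermatids without replicate 3 (*Ehmt2*, *Hdac2*, *Kdm7a*, *Setd2*; 0 to 4). These omissions called 156 higher and 87 lower of all 12555 genes, 131 and 133 of 13045, and 336 and 395 of 14612, so the calls are not particular to the enzymes. Same-number libraries correlated at r of −0.138 to 0.213, and 5 of 21 pairs exceeded 0.1, so numbers were not taken as pairs. Values of named enzymes were taken over all settings, some of which left out a library of a stage outside the comparison. Such settings leave both compared groups as they were, so agreement there says little. By contrast, without R_WT replicate 2, wild-type round to condensing spermatids lost 11 of 36 enzyme calls. Of 1695 values of named enzymes, 1601 kept their sign and their side of the threshold, though their size could move. A further 46 lost their call and 28 gained one. The other 20 were of opposite sign, none past the threshold: into round spermatids *Ezh2* (0.00 in the analysis given; 0.01 by DESeq2, 0.03 with size factors, 0.09 with at least 10 counts, 0.00 in 1 fit; −0.08 to 0.05 with a library left out), *Hdac6* (0.00; 0.01, 0.03, 0.09, 0.01, and 0.07 with replicates summed; −0.25 to 0.17), *Kat8* (−0.02 by library size) and *Hdac1* (0.01 with at least 10 counts), and into condensing spermatids *Kdm5c* (−0.04 to 0.25 with a library left out). Calls of named enzymes were lost into round spermatids by *Prdm9* (8 settings), *Kdm4d* (fold over 1.2) and *Kdm6a* (without P_WT replicate 1), and gained by *Kdm5d* (6 settings), *Kat8* (at least 10 counts) and *Hdac2* (library size only). Into condensing spermatids calls were lost by *Suv39h1* (fold over 1.2, and without C_WT replicate 1 or R_WT replicate 1 or 2), *Kdm5d* (DESeq2, and without C_WT replicate 3 or R_WT replicate 1 or 3), *Kdm4d* (fold over 1.2, and without R_WT replicate 1), *Hdac7* (DESeq2, replicates summed, and without C_WT replicate 1 or 3 or R_WT replicate 2 or 3), *Hdac11* (fold over 1.2, replicates summed, and without C_WT replicate 1 or 2 or R_WT replicate 2 or 3) and *Sirt6* (DESeq2, and without C_WT replicate 1 or R_WT replicate 1 or 2), and gained by *Setd2* (7 settings), *Kat8* (6), *Kdm6a* (4) and *Prdm9* (without C_WT replicate 3). The cause was not tested.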

Other observations

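The single KO spermatozoa library was described without a test. It stood apart in quality: *Rn45s* led with 15.9% of its counts, where *mt-Rnr2* led every other library, and 57.7% of its reads named no gene, against 48.5% and 47.8% in wild-type spermatozoa. Of the 72 enzymes tested in spermatozoa, 41 read above both wild-type libraries (56.9%) and 20 below both (27.8%), beside 42.6% and 42.5% of 15116 genes. The 95% exact Poisson interval, which covers counting error only, lay above both for 33 (45.8%) and below both for 9 (12.5%), beside 29.6% and 26% of all genes. *Kdm6b* read 435 CPM (interval 413–459) against 195 and 188, *Kmt2d* 497 CPM (473–522) against 275 and 300, and *Kdm5c* 125 CPM (113–138) against 53.9 and 68.7. *Ehmt2* read 180 CPM (165–195) against 341 and 304, *Setd3* 224 CPM (208–241) against 461 and 388, and *Hdac6* 54.2 CPM (46.5–62.8) against 130 and 126. The macrophage markers summed to 3450 CPM in this library, the epididymis markers to 550 CPM and the elongating spermatid markers to 10100 CPM, and the part of other cells and of RNA quality in these values was not tested.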
